A study of Arabidopsis thaliana with 4 samples.

Results

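The 10 genes described here were grouped as pathogenesis-related (PR) genes and outputs of salicylic acid signalling. They are PR1 (AT2G14610), PR2 (AT3G57260), PR5 (AT1G75040), LURP1 (AT2G14560), PCR1 (AT1G14880) and AIG1 (AT1G33960). The others are AED1 (AT5G10760), the locus AT3G28510, ALD1 (AT2G13810) and FRK1 (AT2G19190), which is used as a marker of the response to bacterial flagellin. All 10 were chosen by their locus names, on RPKM levels seen earlier in the same 4 libraries, from the 24288 loci of the deposited table. Their differences between libraries are therefore descriptions and carry no test. RNA came from Arabidopsis thaliana plants of the Columbia ecotype, labelled as whole seedlings 12 days old and kept at 23 °C with 16 h of light and 8 h of dark a day on Murashige and Skoog medium holding 3% sucrose. There was 1 library each of wild type, of a mutant in the arginine methyltransferase gene PRMT5 (atprmt5), and of the lines m90 and s215. The series concerns suppressors of atprmt5. The labels do not name the mutation in m90 or s215, do not say whether these lines carry atprmt5 as well, and do not say how many plants were pooled. With 1 library a genotype, each difference is between 2 libraries and not between genotypes.

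Salicylic acid is a plant hormone of defence against pathogens that feed on living tissue. It is made mainly through isochorismate in the chloroplast, is sensed by the NPR proteins, and acts through TGA and WRKY transcription factors on a large set of target genes. PR1, PR2 and PR5 encode proteins secreted from the cell and are the standard readouts of this pathway. In unchallenged leaves they are transcribed little. The pathway opposes parts of the jasmonate response and is tied to systemic acquired resistance, in which pipecolic acid made through ALD1 carries the signal further.

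The s215 library stood apart from the other 3 in ways that bear on each value below. PRMT5 (AT4G31120) was at 5.94 RPKM in wild type, at 1.25 in atprmt5, at 0.974 in m90 and at 1.70 in s215. RPKM is a read number scaled to transcript length and to library size, and library totals lay between 17350612 and 17901204 reads. The s215 library stood apart from the other 3 in ways that bear on each value below. The root markers, 8 in all, included 6 that were lower in s215 than in wild type by 2-fold or more. The other 2, NRT2.1 and FRO2, were higher at under 2 RPKM. Of all loci 24.3% were lower and 12.7% higher in s215 by this measure. The summed level of the 8 root markers was 7.36 RPKM in s215 against 1449 to 1611 in the other libraries. The root glucosidase gene PYK10 was at 3.65 RPKM against 1553 in wild type, and CASP1, EXPA7 and XTH14 were at 0. Of 7 leaf photosynthesis markers 6 were lower, and CAB1 was not, at 10357 RPKM against 7979 in wild type. All 7, CAB1 included, had a summed level of 16973 RPKM against 31783 to 36235 elsewhere. Of 5 leaf senescence markers 2 were higher in s215 than in wild type and 1 lower. SAG12, a protease gene that marks senescing leaves, was at 36.3 RPKM in s215 and at 0 in the others. Genes were counted from a mean of 1 RPKM over the libraries, so SAG12 entered only through s215, in which it was high. SAG29 went the other way, at 0.0442 RPKM in s215 against 62.9 in wild type. The s215 library thus went against its label of a whole seedling in its root markers. What tissue or age was taken, and its part in the results, was not tested, and it cannot be told apart from the genotype with 1 library. In bulk RNA, more cells of a type and more RNA per cell cannot be told apart either.

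Promoters are described for 9 of the genes, all but PR1, and 4 are shown as the 250 bases before the annotated start, read from the RefSeq TAIR10.1 assembly, because TGA and WRKY factors act on genes of this kind through short motifs. The search covered 300 bases, from 250 before to 50 after each start, for the W-box core TTGAC of WRKY factors and the core TGACG of TGA factors, on both strands. The 2 motifs can overlap by 4 letters, as TTGACG. The 4 promoters below were picked to show no match (LURP1, chr2:6213367-6213616, plus strand), 2 TGA cores (AED1, chr5:3402390-3402639, minus strand), an overlap of both motifs (AT3G28510, chr3:10685220-10685469, plus strand) and 3 W-box cores (FRK1, chr2:8329945-8330194, minus strand). Each is written 5′ to 3′ in the direction of the gene, and capitals mark the matches.
LURP1: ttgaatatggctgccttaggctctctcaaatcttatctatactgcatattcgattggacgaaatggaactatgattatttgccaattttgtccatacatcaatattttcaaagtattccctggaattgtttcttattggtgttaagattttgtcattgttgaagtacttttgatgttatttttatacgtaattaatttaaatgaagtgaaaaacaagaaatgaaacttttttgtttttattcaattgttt
AED1: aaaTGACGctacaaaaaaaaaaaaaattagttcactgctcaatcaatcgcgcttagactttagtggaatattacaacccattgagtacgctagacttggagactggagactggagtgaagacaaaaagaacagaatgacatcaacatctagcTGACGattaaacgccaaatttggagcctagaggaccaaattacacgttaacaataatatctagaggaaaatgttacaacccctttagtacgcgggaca
AT3G28510: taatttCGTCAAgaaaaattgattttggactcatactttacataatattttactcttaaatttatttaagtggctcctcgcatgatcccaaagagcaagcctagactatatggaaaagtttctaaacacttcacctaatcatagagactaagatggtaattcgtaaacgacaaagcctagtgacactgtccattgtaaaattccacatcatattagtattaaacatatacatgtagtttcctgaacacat
FRK1: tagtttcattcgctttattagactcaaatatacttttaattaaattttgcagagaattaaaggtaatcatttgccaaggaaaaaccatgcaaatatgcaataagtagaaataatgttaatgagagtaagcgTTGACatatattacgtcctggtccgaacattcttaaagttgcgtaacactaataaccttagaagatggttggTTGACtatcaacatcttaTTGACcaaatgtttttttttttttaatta

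A W-box core was present in 4 of the 9 windows and in 50.5% of 27443 windows of protein-coding genes, and a TGA core in 2 of 9 and in 23.1%. PR5 held 1 W-box core on the opposite strand before its start, and PR2 held 1 only after its start. LURP1, PCR1, AIG1 and ALD1 had neither motif in the window. The shares of the 9 genes lay close to those of all genes.

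The first question was how the genes stood in each library. All 10 were highest in s215, and by a wide margin. In wild type the highest of them was PR5 at 2.59 RPKM and the lowest ALD1 at 0, with a median of 0.558 RPKM. The median was 1.23 RPKM in atprmt5 and 0.573 in m90. In s215 it was 612 RPKM, with a range from 1.92 for ALD1 to 4144 for PR1. The 10 genes together took 0.000877% of all reads in wild type, then 0.00295% in atprmt5, then 0.00196% in m90, but 0.938% in s215. PR1 alone took 0.315% of reads in s215 and was the transcript with rank 3 of 24288 by RPKM there, against rank 18057 in wild type. In s215, 6 of the 10 genes were among the 100 highest transcripts, and in the other libraries 0 were.

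**Figure D1:**
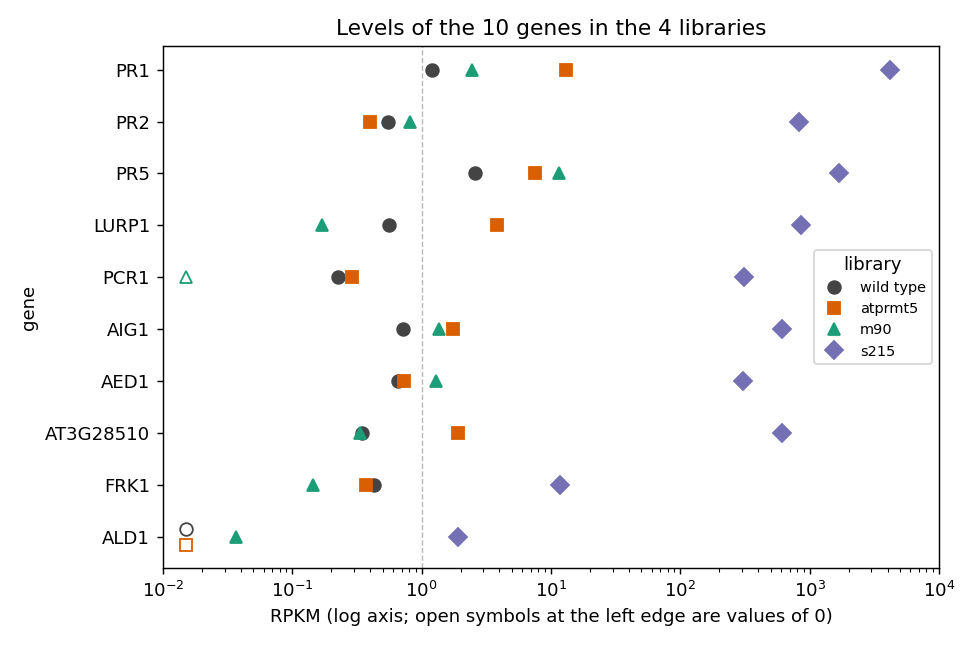
RPKM of the 10 genes on a log axis, with 1 symbol a library; open symbols at the left edge are values of 0 and the dashed line is 1 RPKM. The s215 symbols lie to the right of all others in each row, and in 8 rows they lie at 303 RPKM or more.

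PR1, a secreted protein of the CAP family that binds sterols (chromosome 2, 6241640 to 6242541, minus strand), stood at 1.21 RPKM in wild type, at 13.1 in atprmt5, at 2.44 in m90 and at 4144 in s215. It was 3415-fold above wild type in s215 (2103 to 5976), and 10.8-fold in atprmt5 (6.46 to 19.3). Brackets hold the 95% counting interval of the ratio (exact conditional, Clopper-Pearson). With 1 library a genotype, it covers counting error only and no variation between plants. Copies of a molecule made by PCR cannot be recognised here, so it can be too narrow for counting error as well. In m90 the ratio to wild type was 2.01 (1.08 to 3.91), and the level was 0.186 of that in atprmt5 (0.124 to 0.271). About 16 reads stood behind the wild-type value and about 54734 behind that of s215. PR1 thus was low in wild type and m90, intermediate in atprmt5 and far higher in s215.

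PR2, a beta-1,3-glucanase that cuts a fungal wall polymer (chromosome 3, 21188397 to 21189967, minus strand; named BGL2 in RefSeq), did not follow PR1 in atprmt5. It was at 0.554 RPKM in wild type, at 0.403 in atprmt5, at 0.810 in m90 and at 830 in s215. The ratio of atprmt5 to wild type was 0.727 (0.271 to 1.88) and that of m90 was 1.46 (0.666 to 3.33), so neither was separable from 1 at this depth. In s215 it was 1500-fold above wild type (858 to 2903).

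PR5, a thaumatin-like protein (chromosome 1, 28177670 to 28179022, plus strand), was the gene of the 10 that was highest in wild type. It was at 2.59 RPKM in wild type, at 7.47 in atprmt5, at 11.5 in m90 and at 1699 in s215. It was 2.89-fold above wild type in atprmt5 (2.04 to 4.16), 4.43-fold in m90 (3.18 to 6.29) and 657-fold in s215 (489 to 904). Its level in m90 was 1.54-fold that in atprmt5 (1.23 to 1.93), whereas PR1 was lower in m90 than in atprmt5.

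LURP1, which is needed for basal defence against the downy mildew pathogen (chromosome 2, 6213617 to 6215932, plus strand), stood at 0.562 RPKM in wild type, at 3.84 in atprmt5, at 0.171 in m90 and at 852 in s215. It had the same order of libraries as PR1 except that m90 was lowest. The ratio to wild type was 6.83 in atprmt5 (3.22 to 16.5) and 1517 in s215 (770 to 3515). In m90 it was 0.305 (0.0252 to 1.22), on 2.5 reads, and the level was 0.0446 of that in atprmt5 (0.00424 to 0.136).

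AT3G28510, a locus with no symbol in RefSeq (chromosome 3, 10685470 to 10687429, plus strand), stood at 0.344 RPKM in wild type, at 1.91 in atprmt5, at 0.336 in m90 and at 613 in s215. Wild type and m90 had 11 reads each, with a ratio of 0.975 (0.383 to 2.48). The locus was 5.55-fold above wild type in atprmt5 (2.90 to 11.7) and 1781-fold in s215 (995 to 3569). PR1, LURP1 and AT3G28510 were the 3 genes with an atprmt5 level above those of both wild type and m90 by intervals that left out 1.

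AIG1, a GTP-binding protein first found as induced by the bacterial effector AvrRpt2 (chromosome 1, 12346138 to 12348733, plus strand), stood at 0.714 RPKM in wild type, at 1.74 in atprmt5, at 1.35 in m90 and at 611 in s215. AED1, an apoplastic protein that depends on the defence regulator EDS1 (chromosome 5, 3400322 to 3402389, minus strand), stood at 0.653 RPKM in wild type, at 0.728 in atprmt5, at 1.304 in m90 and at 303 in s215. PCR1, a small membrane protein of cadmium resistance (chromosome 1, 5132506 to 5133860, minus strand), stood at 0.226 RPKM in wild type, at 0.292 in atprmt5, at 0 in m90 and at 309 in s215. All 3 were at or below 1.74 RPKM outside s215. Against wild type, s215 was 856-fold higher for AIG1 (542 to 1445), 465-fold for AED1 (301 to 761) and 1368-fold for PCR1 (468 to 6637). The PCR1 ratio rests on 3 reads in wild type. AIG1 was 2.43-fold above wild type in atprmt5 (1.37 to 4.45) by RPKM but did not reach 2-fold once 1 RPKM was added to each value.

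FRK1 and ALD1 had the lowest s215 levels of the 10 genes and, on the RPKM + 1 scale, the smallest ratios of s215 to wild type. FRK1, a receptor-like kinase gene used as a marker of the response to bacterial flagellin (chromosome 2, 8326049 to 8329944, minus strand), stood at 0.429 RPKM in wild type, at 0.373 in atprmt5, at 0.146 in m90 and at 11.8 in s215, 27.5-fold above wild type (17.8 to 45.7). In m90 it was at 0.339 of wild type (0.122 to 0.840), on 7 reads. ALD1, the aminotransferase that starts pipecolic acid synthesis (chromosome 2, 5768417 to 5772266, plus strand), had 0 reads in wild type and atprmt5, 1 read in m90 and about 51 in s215. Its s215 level of 1.92 RPKM was at least 17.0-fold higher than wild type, against a floor of 3 reads in the wild-type library.

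For the second question, which of the genes differed in each pair, differences were taken as log2 ratios of RPKM + 1 among the 18688 loci whose RPKM averaged 1 or more across the libraries, and a gene was counted at 2-fold. Of the 10 genes 9 passed that minimum; ALD1 did not, at a mean of 0.490 RPKM. Without s215 only 4 would have passed, PR1, PR5, LURP1 and AIG1, so the other 5 were admitted by the library in which they were high and had to differ there. In s215 against wild type all 9 were higher and 0 lower, where 12.7% of all loci were higher and 24.3% lower. In s215 against atprmt5 the counts were again 9 and 0, with 12.7% and 23.2% of all loci. The median log2 ratio of the 9 was 8.84 against wild type and 7.72 against atprmt5, beside -0.15 and -0.12 over all loci. PR1, LURP1, PR2, PR5, AT3G28510, AIG1, PCR1 and AED1 held ranks 1 to 8 of all 18688 loci in s215 against wild type, and FRK1 held rank 306. These ranks are the values on which the genes had been chosen.

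In atprmt5 against wild type, 4 of the 9 genes were higher and 0 lower: PR1, PR5, LURP1 and AT3G28510. Of all loci 1.8% were higher and 3.32% lower. The median log2 ratio of the 9 was 0.68, against -0.0031 over all loci, and PR1 held rank 10. In m90 against wild type only PR5 was higher and 0 were lower, with 2.61% and 2.62% of all loci and a median of 0.22 beside -0.04 over all loci. In m90 against atprmt5, 0 were higher and 3 were lower, PR1, LURP1 and AT3G28510, with 3.63% and 2.34% of all loci and a median of -0.26, again beside -0.04. The comparisons share the atprmt5 and wild-type libraries, so they are not independent of each other.

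**Figure D2:**
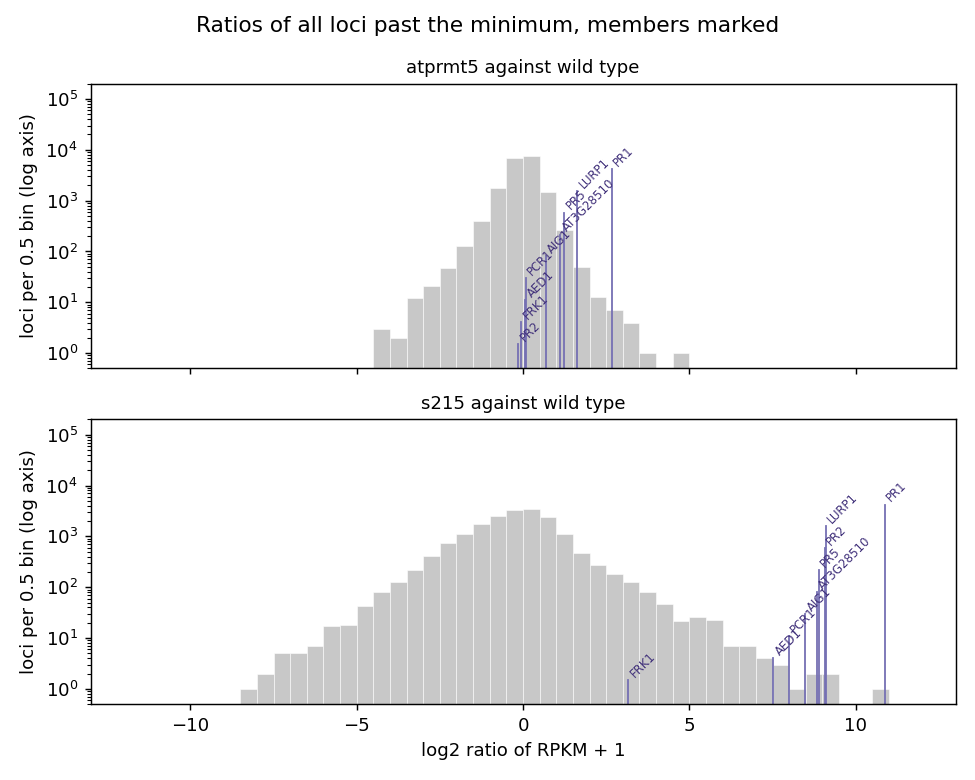
Number of loci by log2 ratio of RPKM + 1 in bins of 0.5, on a log axis, for atprmt5 (top) and s215 (bottom) against wild type, over 18688 loci; the lines mark the 9 genes past the minimum and their height has no meaning. The s215 panel has 8 of the genes at its right end and FRK1 at 3.17, whereas in atprmt5 PR1 at 2.67 lies farthest right among them.

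Many genes that make, sense or turn over salicylic acid were higher in s215 as well. Of 36 measured genes of synthesis, signalling and turnover, all past the minimum, 23 were at least 2-fold higher in s215 than in wild type and 0 lower, with a median log2 ratio of 2.25. Of all loci 12.7% were higher and 24.3% lower, and these shares apply to each count of s215 against wild type below. This list and those below were chosen with earlier results of these data known, so their counts are descriptions. ICS1, the isochorismate synthase of defence, was at 5.62 RPKM in wild type, at 7.14 in atprmt5, at 5.76 in m90 and at 41.9 in s215. It was 7.47-fold above wild type in s215 (6.45 to 8.65). PBS3, which joins isochorismate to glutamate, was 20.9-fold higher (16.5 to 26.8), and EDS5, which exports isochorismate from the chloroplast, 8.08-fold (6.69 to 9.85). ICS2, the second isochorismate synthase, was not higher in s215, at 4.08 against 5.72 RPKM. It was instead the 1 gene of the list counted as higher in atprmt5, at 12.8 RPKM, 2.24-fold above wild type (1.88 to 2.701), where 1.8% of all loci were higher.

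Among upstream regulators 6 of 8 were higher in s215. SARD1, a transcription factor that activates ICS1, was at 0.375 RPKM in wild type, at 1.56 in atprmt5, at 3.79 in m90 and at 79.2 in s215, and its relative CBP60g at 5.42, 2.67, 14.4 and 85.6 RPKM in the same order. Both were also past 2-fold in m90 against wild type, CBP60g by 2.65-fold (2.15 to 3.31), as was PAD4, a lipase-like partner of EDS1, at 23.4 against 10.4 RPKM. Of the 9 PR genes and outputs past the minimum, PR5 was counted as higher in m90.

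Among receptors and their partners 4 of 6 were higher in s215. NPR1, the co-activator that binds salicylic acid, was at 28.6 RPKM in wild type, at 25.3 in atprmt5, at 40.9 in m90 and at 73.0 in s215. NIMIN1, an inhibitor of NPR1 that is itself induced by salicylic acid, differed more, at 0.639, 1.55, 2.80 and 70.6 RPKM. NPR3, a related receptor that represses the response, was the 1 gene of the list lower in atprmt5, at 12.0 against 25.8 RPKM. Of all loci 3.32% were lower there. Of 7 TGA factors 2 were higher in s215, among them TGA3 at 149.6 against 31.7 RPKM, and of 5 WRKY factors all 5 were. WRKY38 and WRKY62 passed the minimum only through s215, in which they were high. WRKY54 was at 122 RPKM in s215 and at 1.47 in wild type, 83.3-fold (59.5 to 121), and WRKY70 at 419.6 RPKM was 8.39-fold above wild type. DMR6, which hydroxylates and so inactivates salicylic acid, was 22.7-fold higher (19.4 to 26.7) and DLO1, of the same family, 67.2-fold (49.5 to 96.5). The glucosyltransferase UGT74F2 was lower in m90 than in wild type, at 28.8 against 82.9 RPKM.

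**Figure D3:**
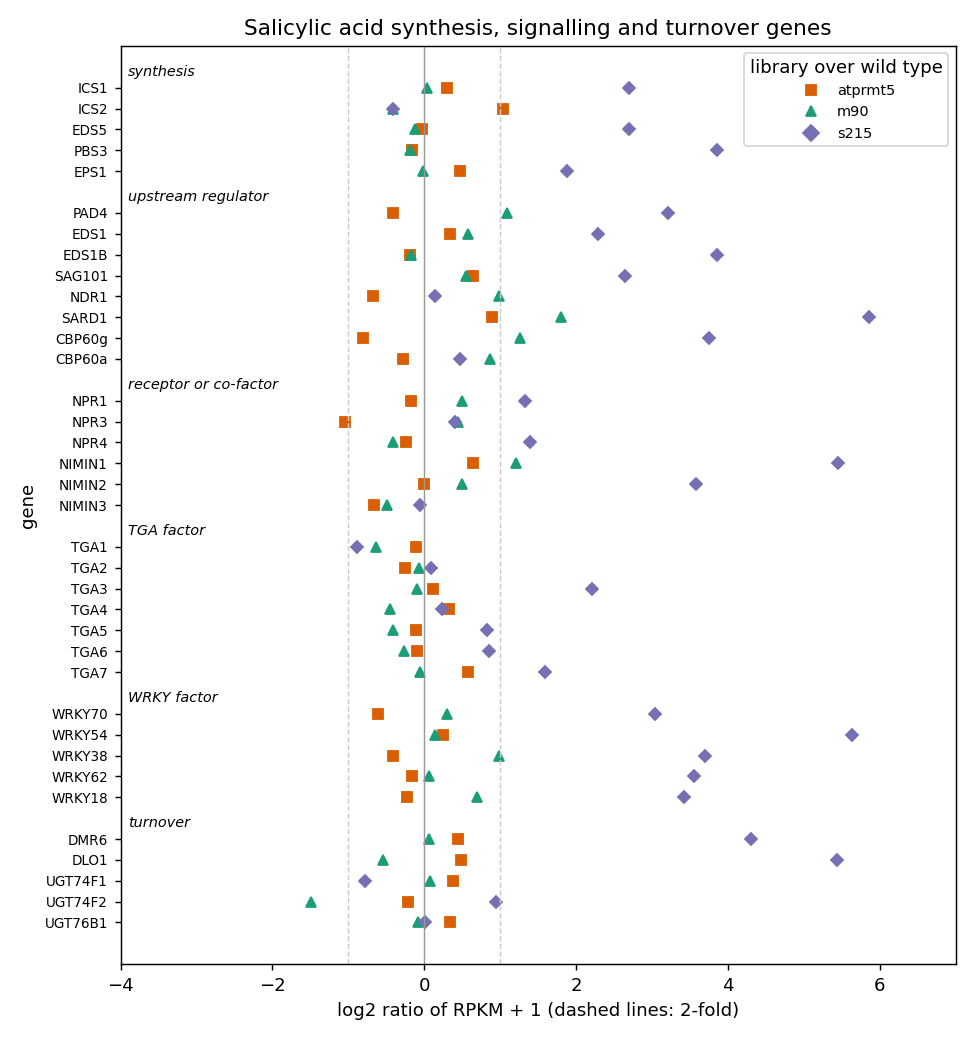
Log2 ratio of RPKM + 1 to wild type for 36 genes of salicylic acid synthesis, signalling and turnover, grouped by role, with 1 symbol each for atprmt5, m90 and s215; dashed lines are 2-fold. The s215 symbols lie past the right dashed line for 23 genes, SARD1 farthest at 5.87, while most atprmt5 and m90 symbols lie between the dashed lines.

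A further list of 12 outputs of the pathway was highest in s215 as a whole, by summed level. OM66 and NUDT7 were instead highest in m90, at 445 and 47.0 RPKM against 257 and 30.6 in s215. Each of the others was highest in s215. All 12 were higher in s215 than in wild type and 0 lower, with a median log2 ratio of 5.42, where 12.7% of all loci were higher. The list was chosen with earlier results of these data known, so the count is a description and no separate support. PNP-A, SAG13, NUDT6 and ARD3 passed the minimum only through s215, in which they were high. ACD6, an ankyrin protein that promotes salicylic acid signalling, was at 3.01 RPKM in wild type, at 10.5 in atprmt5, at 5.11 in m90 and at 575 in s215, and WAK1, a cell wall-associated kinase, at 3.04, 10.2, 3.28 and 428 RPKM. These 2 and AT3G28540 were the 3 of 12 that were higher in atprmt5, where 1.8% of all loci were higher and 3.32% lower. GRX480, a glutaredoxin that interacts with TGA factors, and OM66, a mitochondrial outer membrane protein, were the 2 lower in atprmt5, at 0.369 against 7.77 and 34.4 against 112 RPKM. In m90 both were higher than in wild type, at 17.9 and 445 RPKM, and they were among 5 of 12, where 2.61% of all loci were higher. Of 6 genes tied to systemic acquired resistance 4 were higher in s215 and 1, DIR1, lower. FMO1, which turns pipecolic acid into its active form, was at 6.12 RPKM in s215 and at 0.165 in wild type, and so was low in all libraries, as ALD1 was. FMO1 passed the minimum only through s215.

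Outputs of other defence pathways moved in both directions in s215. Of 8 jasmonate and ethylene outputs past the minimum 5 were higher and 2 lower, beside 12.7% and 24.3% of all loci. Among the 5, PDF1.2, ERF1 and ORA59 passed the minimum only through s215, in which they were high. The vegetative storage protein genes VSP2 and VSP1, jasmonate outputs, were at 1.79 and 0 RPKM in s215 against 269 and 12.8 in wild type. LOX2, a lipoxygenase gene of jasmonate synthesis, went the other way, at 253.9 against 61.0 RPKM, 4.16-fold higher (3.94 to 4.40). The ethylene response factors ERF1 and ORA59 were at 9.76 and 13.1 against 0.420 and 0.991 RPKM. Of 10 genes of the early response to microbial patterns 6 were higher in s215 and 2, PHI-1 and WRKY40, lower. Among the 6, NHL10 passed the minimum only through s215. The lower counts of both lists, 2 of 8 and 2 of 10, lay near the 24.3% of all loci. In atprmt5 the list of early genes had 4 lower and 1 higher, beside 3.32% and 1.8% of all loci. WRKY40, WRKY33 and WRKY53 were at 7.58, 28.5 and 2.31 RPKM in atprmt5 against 172, 185 and 17.2 in wild type, in the same library in which PR1 was 10.8-fold higher. In m90, where PR1 was at 2.44 RPKM, these 3 were at 469, 479 and 44.4 RPKM.

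**Figure D4:**
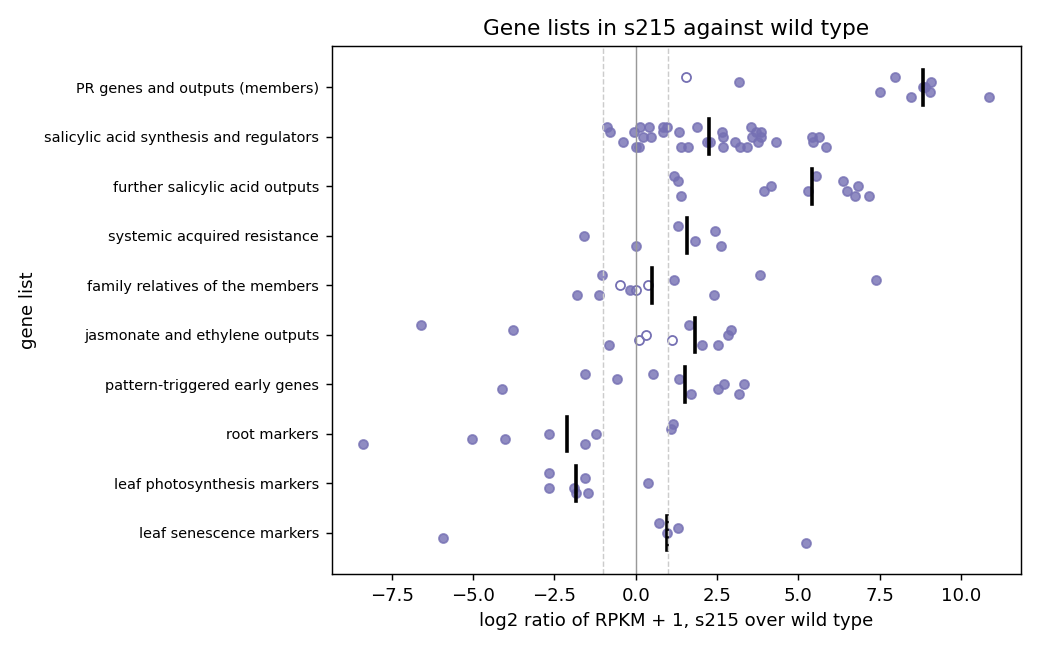
Log2 ratio of RPKM + 1, s215 over wild type, for each gene of 10 lists; filled points passed the minimum, open points did not, bars are medians over the filled points and dashed lines are 2-fold. The PR genes and outputs lie farthest right with a median of 8.84, but they were chosen on these values, so their place was set by that choice. The further outputs follow at 5.42. Some genes of both lists passed the minimum only through s215. Root and leaf photosynthesis markers have medians of -2.12 and -1.83.

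The genes closest in sequence or position to the 10 did not all share their levels. PRB1, the basic relative of PR1 that lies beside it on chromosome 2, was at 1.17 RPKM in wild type, at 1.62 in atprmt5, at 5.05 in m90 and at 0 in s215, at least 4.67-fold lower in s215 than in wild type. LURP1, the next gene but 1 on the same side, was at 0.562 RPKM in wild type and 852 in s215. XTH10 on the other side was at 14.5 RPKM in s215 and 1.80 in wild type. Around PR2, the glucanase gene BG3 was at 0.328 RPKM in wild type, at 0.590 in atprmt5, at 0.137 in m90 and at 221 in s215, while BG1 was at 0.289 RPKM in s215 and at 0 elsewhere. AGL16, AT3G57280 and EIF3E beside them lay within 2-fold. Next to PCR1, its relative PCR2 was at 9.41 RPKM in s215 against 10.7 in wild type. Of the 6 genes around PCR1, 3 were lower in s215, HMGA at 1.12 against 22.5 RPKM, NUDT18 at 0.153 against 1.97 and AT1G14890 at 11.8 against 26.0. Of all loci 24.3% were lower. How the authors treated reads that match several family members is not given in the sources used here, so the value of BG3 beside PR2 is uncertain.

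Among other relatives, IAN7, of the AIG1 family, was at 13.1 RPKM in s215 and at 0 in the other 3 libraries, at least 38.9-fold higher than wild type. AIG2, found in the same screen as AIG1, was at 91.3 RPKM in wild type and 488 in s215. The PR5 relatives OSM34 and PR5K were lower in s215, at 19.1 against 40.4 and 0.0994 against 2.84 RPKM. Of 8 relatives past the minimum 4 were thus higher and 3 lower, beside 12.7% and 24.3% of all loci. BG3 and IAN7 passed the minimum only through s215, in which they were high.

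**Figure D5:**
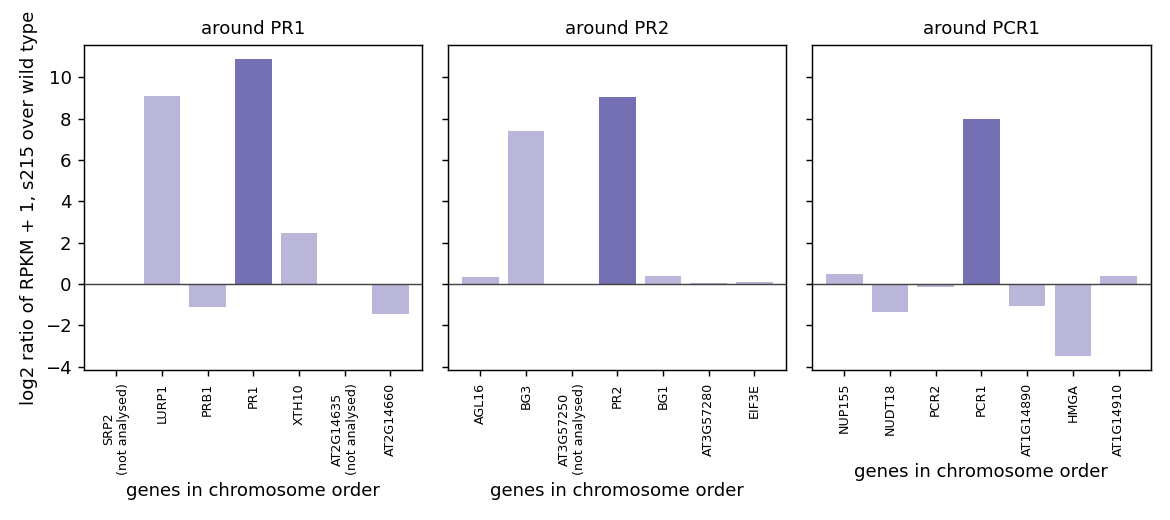
Log2 ratio of RPKM + 1, s215 over wild type, for PR1, PR2 and PCR1 (dark bars) and the 3 protein-coding genes on each side in chromosome order (light bars); genes named without a bar were not analysed here. LURP1 at 9.09 and BG3 at 7.39 are the neighbours with tall bars, and of the 6 around PCR1, 0 are 2-fold higher and 3 are 2-fold lower.

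The patterns of PR1, PR2 and PR5 were also compared with those of the 18688 loci past the minimum. The measure was the distance between profiles of log2(RPKM + 1) over the 4 libraries, each centred on its own mean. Large differences, here those of s215, weigh most in it, and the 10 genes had been chosen on levels in these libraries. Their nearness to each other was thus largely set by that choice and is a description only. To PR1 the nearest loci were LURP1 at 1.27, AT3G28510 at 1.58 and AIG1 at 2.12. The 5 nearest outside the 10 were BG3 at 2.699, AT1G15125 at 2.88, AT2G04460 at 2.93, ACD6 at 3.01 and AT1G35710 at 3.11. The nearest to PR2 were PCR1 and AIG1, both at 1.01, and outside the 10 AT2G04460 at 1.40, BG3 at 1.56 and AT1G13470 at 1.88. To PR5 the nearest were AIG1 at 0.97 and the outside locus AT1G35710 at 1.01, followed outside the 10 by AT2G04460 at 1.43 and AT1G15125 at 1.43. PR1 and its nearest pair, LURP1 and AT3G28510, each had a level in atprmt5 above those of wild type and m90. PR5 and AT1G35710 were also higher in atprmt5 than in wild type, and were higher still in m90. AIG1, the nearest to PR5, was not higher in m90 than in atprmt5, at 1.35 against 1.74 RPKM. AT1G35710 was at 1.04 RPKM in wild type, at 2.73 in atprmt5, at 3.75 in m90 and at 369 in s215. FRK1 lay far from all 3, at 5.94 from PR1.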

How the data were processed

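The authors deposited 1 table of RPKM values, 24288 loci by 4 libraries. Per the submitters' processing notes, TopHat2 2.0.11 and the TAIR10 build were used; the labels' protocols name Trizol for the extraction and the SMART method for the strand-specific libraries. The counting program is not given in the sources used here. Each column matched 1 sample by name. The members and gene lists were chosen with earlier results of these data known.

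Library totals came from the commonest product of RPKM and annotated length, taken as 1 read. Reads of a gene were recovered at the length between 0.5 and 1.1 times the shortest RefSeq transcript at which all 4 values came to hundredths of a read; among such lengths, the one with the largest number of libraries whole within 0.005 reads was taken, and many values stayed fractional. Such a length was found for all 10 genes and for 109 of 116 loci; for the others the annotated length was used. Reads and intervals are approximate. Log2 ratios used a pseudocount of 1 RPKM, which understates low genes. The 2-fold rule was tested on simulated data.

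Members were all named, and of each list up to 3 genes in each direction past 2-fold; other genes are named for their role, family or position, after their values were seen. Of 108 loci in 9 further lists 105 were in the table. The PR1 promoter is not reported here. Gene positions and promoters came from RefSeq TAIR10.1, whose coordinates were joined to no deposited ones. Python 3.11.15, NumPy 2.4.6, pandas 2.3.3, SciPy 1.17.1 and Matplotlib 3.10.9 were used.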

Additional observations from a re-analysis of the deposited data

How the results depend on the processing

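Counts of members past 2-fold, 2 directions in 5 comparisons, were recomputed with a pseudocount of 0.1 RPKM, with no minimum, with a mean of at least 5 RPKM, after scaling by the median ratio, at 1.5-fold and at 3-fold, and, chosen after seeing the data, with the minimum taken over the 2 libraries compared. Of 70 recomputed counts 67 were equal to the original or within 1.5 times it. Many of these were counts of 0 that stayed 0, which says little for genes chosen on high levels. The exceptions were members higher in atprmt5 than in wild type, 2 at 3-fold against 4, members higher in m90 than in wild type, 2 at 1.5-fold against 1, and members lower in m90 than in wild type, 3 with the pseudocount of 0.1 against 0. The last 3 were LURP1, PCR1 and FRK1, all under 0.6 RPKM in both libraries. The log2 ratios of all 10 members, counted at 2-fold or not, were recomputed with the pseudocount of 0.1 and after the scaling, 100 in all. No member counted at 2-fold changed direction among them. AT3G28510 in m90 against wild type, not counted, went from -0.0094 to 0.0029 after the scaling. With the pseudocount of 0.1 ratios of low genes grew in size, as for FRK1 in s215 against wild type, from 3.17 to 4.49. No paired analysis was possible because each genotype has 1 library, and no library could be left out for the same reason. Depth limits values below about 1 RPKM, which rest on few reads.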
